A study of Mus musculus with 8 samples.

Results

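Amino acid and peptide transporters of the kidney were followed through messenger RNA sequenced from 8 mouse kidney samples. The genes were taken by a rule on their names, which was set with earlier results of these data known. They comprised the Slc1a, Slc3a, Slc7a, Slc15a, Slc36a, Slc38a and Slc43a families, together with Slc6a6, Slc6a13, Slc6a18, Slc6a19, Slc6a20a, Slc6a20b and Slc16a10, and without Slc7a11 and Slc38a3. The rule covered 52 gene symbols of the reference, of which 45 stood among the 15948 genes of the deposited table. The other 7 (Slc1a6, Slc1a7, Slc7a14, Slc15a5, Slc36a3, Slc38a5 and Slc38a8) were not analysed here.

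The samples came from a study of Arhgef11, a guanine nucleotide exchange factor, in high blood pressure and kidney injury. The labels named 5 samples Sglt2Cre_DOCA, called the control group here, and 3 samples Arhgef11Sglt2_DOCA. The study's title speaks of a knockout specific to the proximal tubule, and the Cre label refers to Sglt2, encoded by Slc5a2, which takes up glucose in the early part of that tubule. Both groups carry DOCA in their names, in this field deoxycorticosterone acetate, a mineralocorticoid used to raise blood pressure, so no kidney without it was compared here. Strain, sex, age, dose, duration and any genotype beyond these names were not stated in the labels. Nor do the labels say that each sample is a different animal. The p-values therefore refer to sample-to-sample spread, which may be partly technical.

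The proximal tubule recovers nearly all filtered amino acids and small peptides. Carriers in the brush border, the membrane facing the urine, take them up with sodium, protons or in exchange for another amino acid, and carriers in the basolateral membrane pass them on to the blood. Several carriers work only as a pair: a light chain of the Slc7 family does the transport, and a heavy chain, Slc3a1 (rBAT) or Slc3a2 (4F2hc), brings it to the membrane. Inherited loss of Slc3a1 or Slc7a9 causes cystinuria, loss of Slc7a7 lysinuric protein intolerance, and loss of Slc6a19 Hartnup disorder.

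Normalized counts, the values used for levels below, are the deposited log2 values transformed back to a linear scale. They summed to between 43040000 and 46680000 per library, and the depth estimated from the spacing of low values ran from 33100000 to 59500000 reads. That estimate is rough, since the fitted spacing matched only 31.4% to 54.4% of the low values used. It was 43300000 to 59500000 for control replicates 1 to 3, and 33100000 and 33700000 for control replicates 4 and 5. For the Arhgef11Sglt2 libraries it was 51300000 to 57900000. Arhgef11 itself had 2935 to 3919 normalized counts in the Arhgef11Sglt2 libraries and 3479 to 3928 in the controls (log2 difference -0.04, adjusted p = 0.834 in limma), so whole-kidney RNA did not check the labels. As kidney markers, Umod of the thick ascending limb and Slc34a1 of the proximal tubule were abundant in every library. The 7 proximal tubule markers examined summed to 454111 to 475687 normalized counts among controls, against 245649 to 372268 in Arhgef11Sglt2 libraries. All 7 had a negative log2 difference (median -0.72), and 3 fell in limma, namely Miox (1.92-fold), Lrp2 (1.63-fold) and Slc34a1 (1.62-fold). By the threshold given below, 1.59% of all genes fell. Among the markers of other segments and of podocytes, endothelium, fibroblasts, macrophages and lymphocytes, only the plasma cell transcripts Igkc and Jchain passed the threshold, both lower. Slc12a1 of the thick ascending limb was 1.62-fold lower (limma adjusted p = 0.0536), while Umod of that segment had a log2 difference of 0.02. Median log2 differences were -0.31 for thick ascending limb, -0.43 for distal convoluted tubule, -0.12 for collecting duct and 0.07 for podocyte markers. The 4 markers of injured tubule summed to 5085 to 8815 among controls, against 11576 to 32616 in Arhgef11Sglt2 libraries, highest in replicate 1. The part of any marker group in the results below was not tested. Fewer cells of a type and less RNA per cell cannot be told apart in such bulk samples.

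The question asked of the transporters was which of them differed between kidneys labelled Arhgef11Sglt2 and controls. Transcripts of 2 members fell: Slc6a20b, of the sodium- and chloride-coupled family, and Slc7a13, a light chain of the last proximal tubule segment. None of the 45 members rose. The main sodium-coupled carrier of neutral amino acids, Slc6a19, and most other members gave no difference past the threshold. The test was limma on the deposited log2 values of all 15948 genes, with a Benjamini-Hochberg adjusted p below 0.05 as the threshold. By this rule 2 of 45 members and 2.22% of all genes were called. Of all genes 1.59% were lower and 0.627% higher, beside 2 and 0 members. At an unadjusted p under 0.05, 6 members were lower and 4 higher (12.1% and 9.04% of all genes), while 21.1% of all genes were below it in either direction. Limma with sample weights called 3 members higher and 2 lower, where it called 2.16% of all genes higher and 3.32% lower. The median log2 difference over the 45 members was -0.0003, beside -0.007 over all genes. Of the members, 22 had a positive and 23 a negative difference. The values of the groups did not overlap for 3 members, Slc6a20b, Slc7a13 and Slc38a2, while they did not overlap for 14.3% of all genes. The 95% interval of the log2 difference lay within 1 unit of 0 for 43 members and within 0.5 units for 27. Single libraries moved the count of lower members: it was 1 without control replicate 3 or Arhgef11Sglt2 replicate 3, 0 without control replicate 4 or 5, and 3 without replicate 1 or replicate 2 of the Arhgef11Sglt2 group. Without that replicate 1, 4.74% of all genes were lower and 3.62% higher, and 5 members were higher. Without that replicate 2, 1.88% of all genes were lower and 0.903% higher, and no member was higher.

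**Figure D1:**
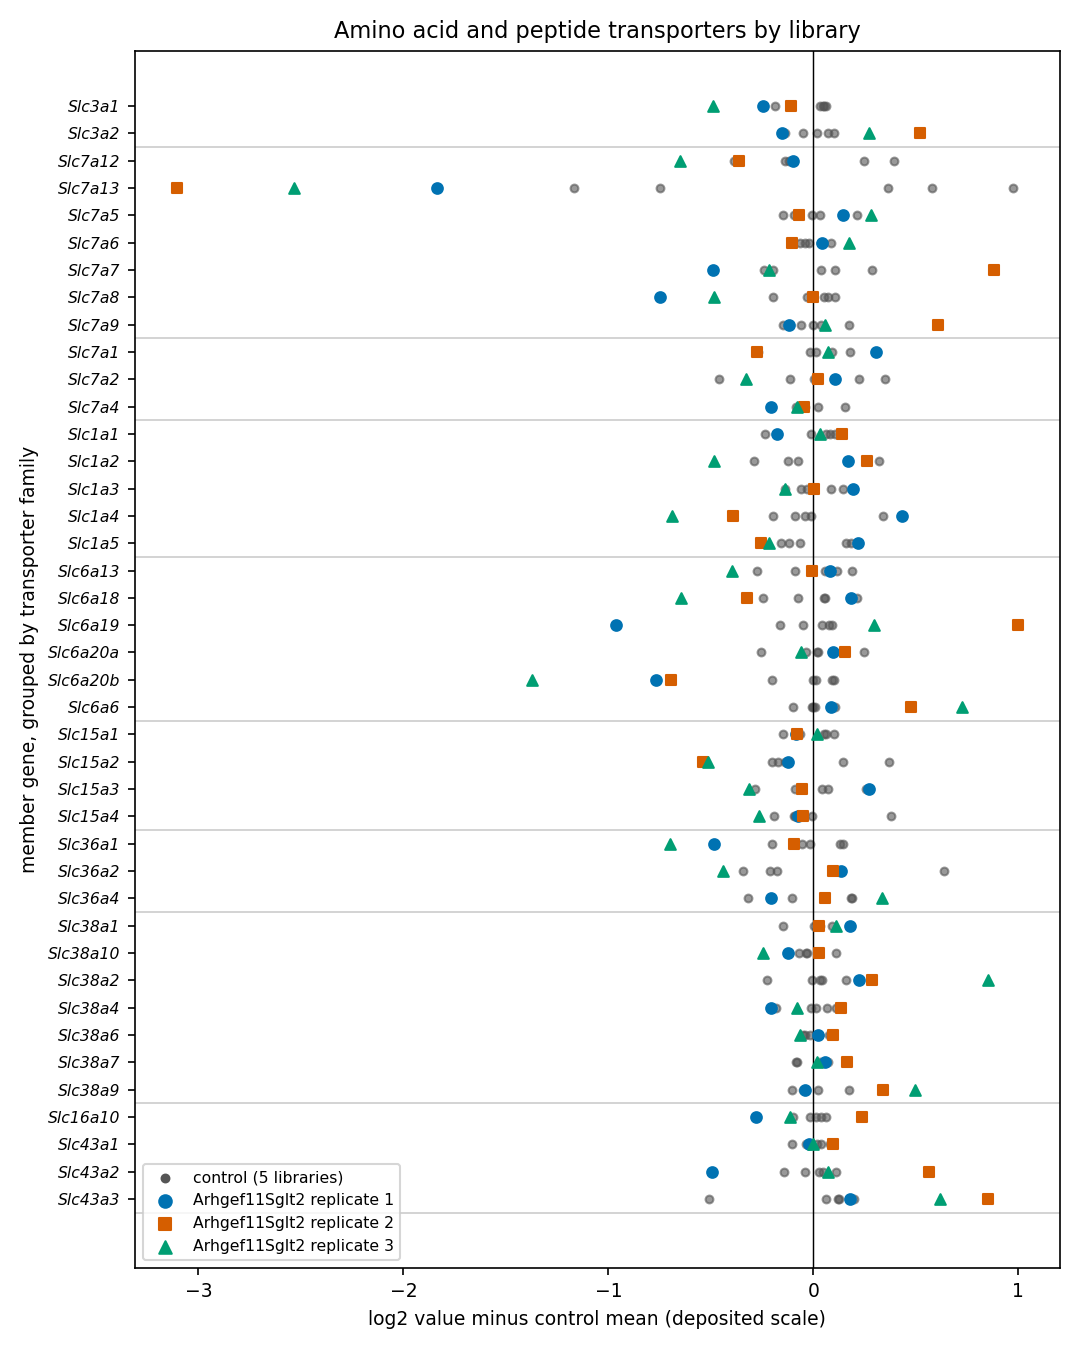
Each row is 1 of the 41 members with a mean of at least 50 normalized counts, grouped by family, and the horizontal axis is the deposited log2 value minus the mean of the controls. Grey points are the 5 control libraries and coloured symbols the 3 Arhgef11Sglt2 libraries. All coloured symbols lie left of every grey point for Slc6a20b and Slc7a13, and right of them for Slc38a2.

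Slc6a20b (ENSMUSG00000025243) is 1 of a pair of neighbouring mouse genes of the sodium- and chloride-coupled family. What each of the 2 copies carries was not examined here. Control replicates 1 to 5 had 9288, 10836, 10725, 11553 and 11498 normalized counts of it, and the Arhgef11Sglt2 replicates 1 to 3 had 6094, 6444 and 3830. Every Arhgef11Sglt2 library was thus below every control library, and replicate 3 was the lowest. The mean was 1.98-fold lower (10780 ± 915 in the controls, SD, n = 5, against 5456 ± 1419, SD, n = 3). In log2 units this was -0.94 (SE 0.15, 95% interval -1.27 to -0.62). Limma gave an adjusted p of 0.0189, and the test over samples gave an exact two-sided permutation p of 0.0179, the smallest the 56 splits can give. Leaving out control replicate 4 or 5 ended the call in limma (adjusted p = 0.0589 and 0.0535). The library numbers in the labels form a lower run (3 controls, 2 Arhgef11Sglt2) and a higher run (2 controls, 1 Arhgef11Sglt2). Within the lower run the mean was 1.64-fold lower, and within the higher run 3.01-fold lower.

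Its neighbour Slc6a20a was far less abundant and had 592 to 1021 normalized counts among controls, against 737 to 929 in Arhgef11Sglt2 libraries. These ranges overlapped, and the log2 difference was 0.06 (95% interval -0.17 to 0.30, limma adjusted p = 0.775). It was -0.03 among control replicates 1 to 3 and the Arhgef11Sglt2 libraries. The difference in response between the 2 genes was not tested. The copies are alike: of the distinct 31-base words in the longest coding transcript of Slc6a20b in the reference, 15.1% also occur in transcripts of other genes, and 20.6% of those of Slc6a20a, with the other copy sharing the most in each case. Reads from the shared parts cannot be placed with certainty, so the separate values are uncertain. The sum of both genes was 10093 to 12255 normalized counts among controls, against 4567 to 7373 in Arhgef11Sglt2 libraries. That sum was 1.84-fold lower (two-sided exact permutation p = 0.0179). Slc6a20b, already called lower, made up most of it (10780 of 11577 normalized counts in the control means). The p of the sum is therefore no separate support.

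The stretches before the start sites of both copies are shown, from RefSeq on GRCm38.p6. Each covers the 250 bases upstream of the annotated start, at chr9:123632539-123632788 for Slc6a20b and chr9:123678833-123679082 for Slc6a20a, both on the minus strand, 5′ to 3′. Capitals mark matches to any of 4 motifs, searched on both strands: the HNF1 half-site GTTAAT, the HNF4 half-site CAAAGT, the androgen receptor half-site TGTTCT and the C/EBP-ATF composite element TGATGNAAN.
Slc6a20b: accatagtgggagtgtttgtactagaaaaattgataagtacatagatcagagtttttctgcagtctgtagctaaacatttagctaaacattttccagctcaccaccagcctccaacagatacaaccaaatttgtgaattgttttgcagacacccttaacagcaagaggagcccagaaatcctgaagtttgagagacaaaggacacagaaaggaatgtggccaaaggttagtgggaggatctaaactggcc
Slc6a20a: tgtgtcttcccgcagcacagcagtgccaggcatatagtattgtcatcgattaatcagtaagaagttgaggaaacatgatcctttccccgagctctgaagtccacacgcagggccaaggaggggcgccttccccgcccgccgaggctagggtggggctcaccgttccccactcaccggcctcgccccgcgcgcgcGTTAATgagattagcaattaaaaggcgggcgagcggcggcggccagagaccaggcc
The stretch before Slc6a20a held 1 match, GTTAAT, which begins 56 bases before the start, and the stretch before Slc6a20b held none of these letters. Among all 32851 promoter entries, 6.43% held GTTAAT, 12.6% CAAAGT, 16.1% TGTTCT and 3.44% TGATGNAAN in the same 250 bases. For the 32 members with an entry (45 entries), the shares were 13.3%, 6.67%, 17.8% and 4.44%. Whether any of these motifs bears on the values of either copy was not tested. The promoter of Slc7a13 was not analysed here.

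**Figure D2:**
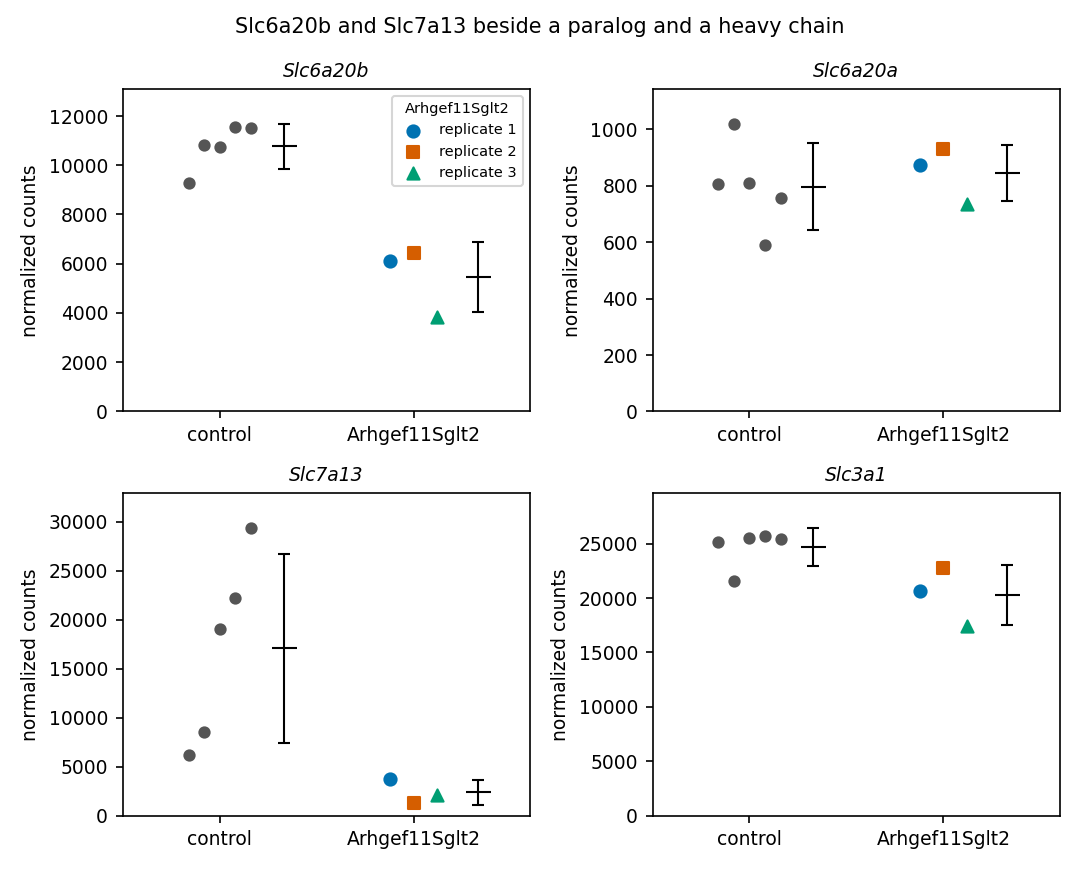
Normalized counts (vertical axes, from 0) of Slc6a20b, its neighbour Slc6a20a, Slc7a13 and the heavy chain Slc3a1, with 1 point per library and the mean ± SD to the right of each group. For Slc6a20b and Slc7a13 all Arhgef11Sglt2 points lie below all control points, whereas the groups overlap for Slc6a20a and Slc3a1.

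Slc7a13 (AGT1, ENSMUSG00000041052), which carries acidic amino acids and cystine in the last segment of the proximal tubule, had the largest difference among the members. Its normalized counts were 6247, 8538, 19111, 22236 and 29401 from control replicate 1 to control replicate 5. They were 3741, 1259 and 2107 in Arhgef11Sglt2 replicates 1, 2 and 3. All Arhgef11Sglt2 libraries were below all controls, although the controls themselves were spread widely, with replicates 1 and 2 far under the rest. The mean was 7.22-fold lower (17107 ± 9655, SD, n = 5, against 2369 ± 1262, SD, n = 3). This amounted to -2.49 in log2 units (SE 0.48, 95% interval -3.56 to -1.43, limma adjusted p = 0.037, two-sided exact permutation p = 0.0357). The call was lost without Arhgef11Sglt2 replicate 2 or 3 (adjusted p = 0.072 and 0.131) and without control replicate 3, 4 or 5 (0.0739, 0.0929 and 0.0774), with log2 differences from -2.47 to -2.18. Within the lower run of library numbers the mean was 4.52-fold lower, and within the higher run 12.3-fold lower.

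Slc7a13 belongs to the genes that male mouse kidneys express more than female ones, under androgens. The 8 other genes of this kind examined summed to 139296 to 448471 normalized counts among controls and to 45426 to 143129 in the Arhgef11Sglt2 libraries. Kap, described below, made up most of that sum in every library, so the sum largely restates Kap. All 8 had a negative log2 difference (median -1.69), and 4 fell in limma: Slc22a28 (4.08-fold), Slc22a30 (4.29-fold), Cyp2j13 (5.27-fold) and Acsm3 (9.99-fold). Of all genes, 1.59% were called lower and 0.627% higher. The abundant androgen-regulated transcript Kap had 113909, 229145, 270968, 317382 and 386269 normalized counts in control replicates 1 to 5, the same order as Slc7a13. In the Arhgef11Sglt2 libraries it had 120196, 30451 and 63692, again the order of Slc7a13, although replicate 1 lay above control replicate 1 (limma adjusted p = 0.0587). Transcripts of the 4 Y-linked genes Ddx3y, Uty, Kdm5d and Eif2s3y were measured in all 8 libraries, with sums of 6292 to 8590. The part that these genes have in the Slc7a13 result was not tested. Of 4 female-biased genes examined, 2 had a positive and 2 a negative log2 difference (median 0.08). The efflux pump Abcc3 rose (2.09-fold, limma adjusted p = 0.0484), and the prolactin receptor Prlr had a difference of -0.74 (limma adjusted p = 0.184). Slc7a12, a light chain that is higher in female mouse kidneys, had 2042 to 3876 normalized counts among controls, against 1618 to 2602 in Arhgef11Sglt2 libraries. Its log2 difference was -0.37 (SE 0.18, limma adjusted p = 0.273). Control replicate 1, lowest in Slc7a13, was the highest in Slc7a12.

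**Figure D3:**
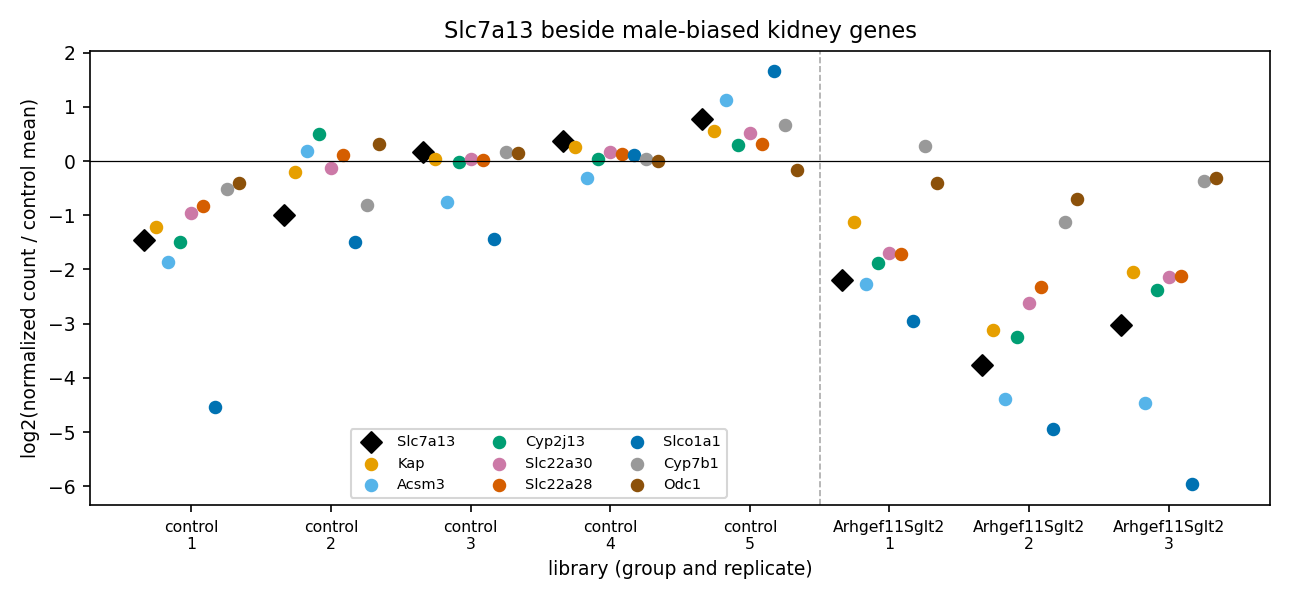
For each library (horizontal axis), the log2 ratio of the normalized count to the control mean is shown for Slc7a13 (black diamonds) and the 8 male-biased kidney genes (circles). All 9 genes lie below the control mean in control replicate 1 and in Arhgef11Sglt2 replicates 2 and 3, and all but Cyp7b1 also in Arhgef11Sglt2 replicate 1.

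Slc3a1, the heavy chain that pairs with Slc7a13 in the last segment and with Slc7a9 in the earlier ones, was the most abundant member per kilobase of transcript in the controls (10880 normalized counts per kilobase). Slc7a13 came next, with 7990 per kilobase, and had 1107 in the Arhgef11Sglt2 libraries. Slc3a1 had 25200, 21571, 25565, 25709 and 25464 normalized counts in control replicates 1 to 5, against 20685, 22786 and 17389 in the Arhgef11Sglt2 libraries. Control replicate 2 lay between the Arhgef11Sglt2 values, and the other controls lay above all of them. The log2 difference was -0.28 (SE 0.10, limma adjusted p = 0.165). Slc7a9, the light chain of the cystine carrier, had 4197 to 5374 normalized counts in the controls. Its Arhgef11Sglt2 values were 4291, 7450 and 4919, so that only replicate 2 lay outside the controls (log2 difference 0.18, SE 0.15, limma adjusted p = 0.513).

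The balance of light and heavy chain was compared within each library, where gene length drops out of the difference between groups. The log2 ratio of Slc7a13 to Slc3a1 was -0.75 ± 0.90 among controls (SD, n = 5), against -3.23 ± 0.87 in Arhgef11Sglt2 libraries (SD, n = 3). That is a difference of -2.48 (two-sided exact permutation p = 0.0179, 0.0537 after Benjamini-Hochberg adjustment over 3 ratios). On the deposited scale Slc7a13 alone differed by -2.49 and Slc3a1 by -0.28. This ratio therefore largely restates the Slc7a13 result and is no separate support. The controls ran from -2.01 to 0.21 and the Arhgef11Sglt2 libraries from -4.18 to -2.47, without overlap. For Slc7a9 to Slc3a1 the ratio was -2.39 ± 0.23 among controls, against -1.90 ± 0.34 in Arhgef11Sglt2 libraries. This difference of 0.49 had an exact permutation p of 0.0536, or 0.0804 adjusted over the 3 ratios. Control replicate 2 lay above Arhgef11Sglt2 replicate 1 there, and the other controls lay below all Arhgef11Sglt2 libraries.

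The second heavy chain, Slc3a2, serves the basolateral light chains. It had 6881 to 8240 normalized counts among controls, against 6824, 11175 and 9344 in Arhgef11Sglt2 libraries, 1 of them below and the others above all controls (log2 difference 0.21, SE 0.13, limma adjusted p = 0.39). Without Arhgef11Sglt2 replicate 1 the difference was 0.40 and passed the threshold (adjusted p = 0.0414). Slc7a7, which releases lysine and arginine on the blood side, had 5583 to 8292 normalized counts among controls, against 4618, 12781 and 5679 in Arhgef11Sglt2 libraries. Only replicate 2 was high, replicate 1 was below every control, and the log2 difference was 0.06 (95% interval -0.53 to 0.65, limma adjusted p = 0.926). Slc7a8 (LAT2), which exchanges neutral amino acids at the same membrane, had 7931 to 9895 normalized counts among controls, against 5246, 9149 and 6387 in Arhgef11Sglt2 libraries. Here replicates 1 and 3 were below all controls and replicate 2 among them (log2 difference -0.41, SE 0.15, limma adjusted p = 0.157, and 0.0259 without replicate 2). Slc7a5 (LAT1), a growth-associated light chain, had a mean of 294 normalized counts among controls, against 350 in Arhgef11Sglt2 libraries (limma adjusted p = 0.537). Of the 9 light chains in all, 1 passed the threshold, and 6 had a positive difference.

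Slc6a19 (B0AT1), the main carrier of neutral amino acids in the brush border, had the highest coefficient of variation in the Arhgef11Sglt2 libraries (61.8%) among the 21 members with a control mean of at least 2000 normalized counts. The 5 controls lay close together, at 12300, 11198, 11971, 12420 and 10332 normalized counts. The Arhgef11Sglt2 libraries had 5689, 23738 and 14408, so replicate 1 was below every control and replicates 2 and 3 above every control. The log2 difference was 0.11 (SE 0.34, 95% interval -0.64 to 0.86, limma adjusted p = 0.884). It became 0.65 without replicate 1 (adjusted p = 0.0472) and -0.33 without replicate 2 (adjusted p = 0.537). Cltrn, the collectrin that Slc6a19 needs to reach the membrane, had a limma adjusted p of 0.249.

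Slc6a18 (B0AT3), a related carrier of the later proximal tubule, had 18644 to 25819 normalized counts among controls, against 25290, 17647 and 13974 in Arhgef11Sglt2 libraries. Here replicate 1 was among the controls and replicates 2 and 3 were below all of them (log2 difference -0.26, SE 0.17, limma adjusted p = 0.415). Slc6a6, the taurine carrier, had 22751 to 26317 normalized counts among controls, against 25982, 34228 and 40798 in Arhgef11Sglt2 libraries. Replicates 2 and 3 lay above all controls and replicate 1 among them (log2 difference 0.43, SE 0.13, limma adjusted p = 0.11). Without replicate 1 the difference was 0.60 and passed the threshold (adjusted p = 0.0152), and it also passed with sample weights (0.44, adjusted p = 0.0295). Slc6a13, a carrier of GABA and taurine, had 3003 to 4334 against 2713 to 3984 normalized counts (limma adjusted p = 0.68).

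The peptide carriers take up di- and tripeptides with protons. Slc15a2 (PEPT2), the high-affinity form of the later proximal tubule, had 4170, 2783, 3504, 2640 and 2707 normalized counts among controls, against 2821, 1987 and 2028 in Arhgef11Sglt2 libraries. Replicates 2 and 3 were below all controls and replicate 1 was not (log2 difference -0.39, SE 0.15, limma adjusted p = 0.172). Slc15a1 (PEPT1), the low-affinity form of the early tubule, had only 36.8 to 81 normalized counts in any library (limma adjusted p = 0.714). Their log2 ratio, Slc15a2 to Slc15a1, was 5.70 ± 0.69 among controls, against 5.44 ± 0.48 in Arhgef11Sglt2 libraries (exact permutation p = 0.625). Slc15a3 and Slc15a4, histidine and peptide carriers of lysosomes, did not pass the threshold either, and all 4 measured genes of the family had a negative difference.

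Of the Slc1 family, Slc1a1 (EAAC1), the glutamate and aspartate carrier of the brush border, was the closest to no difference. It had 10207 to 13106 normalized counts among controls, against 10668 to 13432 in Arhgef11Sglt2 libraries (log2 difference -0.0003, 95% interval -0.23 to 0.23, limma adjusted p = 0.999). That difference was 0.04 when libraries were scaled to equal totals. Slc1a4 and Slc1a5, exchangers of small neutral amino acids, both had 1 high library in the Arhgef11Sglt2 group, replicate 1. For Slc1a4 the values were 1829, 825 and 592 normalized counts against 1010 to 1682 in the controls (limma adjusted p = 0.612, and 0.0493 without replicate 1). For Slc1a5 they were 2867, 1924 and 1993 against 2096 to 2782 (limma adjusted p = 0.746). Slc7a1, the widespread carrier of lysine and arginine, likewise had its highest value there, with 1326, 738 and 1058 against 741 to 1178 (limma adjusted p = 0.914). No member of the Slc1 family or of the cationic Slc7 carriers passed the threshold.

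Slc38a2 (SNAT2), a sodium-coupled carrier of neutral amino acids that cells make more of when amino acids are scarce, had 6253, 4657, 5519, 5681 and 5718 normalized counts in the controls. The Arhgef11Sglt2 libraries had 6549, 6889 and 10446, all above every control, though replicate 1 only narrowly. The mean was 1.43-fold higher (5566 ± 578, SD, n = 5, against 7961 ± 2158, SD, n = 3). This did not pass the threshold in limma (log2 difference 0.45, SE 0.14, adjusted p = 0.118; two-sided exact permutation p = 0.0179). Without replicate 3 of the Arhgef11Sglt2 group the difference was 0.25 (adjusted p = 0.341). Slc38a9, a lysosomal arginine sensor, had 840 to 1116 against 898, 1306 and 1508 normalized counts (limma adjusted p = 0.229). With sample weights, and also without Arhgef11Sglt2 replicate 1, Slc38a9 passed the threshold. It and Slc43a3 below were singled out after their values were seen.

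Slc36a1, a proton-coupled carrier of small neutral amino acids, had 4344 to 5664 normalized counts among controls, against 3485, 4731 and 2931 in Arhgef11Sglt2 libraries. Replicates 1 and 3 were below all controls (log2 difference -0.42, SE 0.13, limma adjusted p = 0.116, and 0.034 without replicate 2). Slc36a2, its high-affinity relative, was scarce, at 6.26 to 241 normalized counts per library. Slc43a2, a facilitative carrier of neutral amino acids, had 10609 to 12790 among controls, against 8217, 17692 and 12421 in Arhgef11Sglt2 libraries. This was again low in replicate 1 and high in replicate 2 (log2 difference 0.05, SE 0.19, limma adjusted p = 0.915). Slc16a10 (TAT1), the basolateral carrier of aromatic amino acids, had 2446 to 2791 against 2099, 3221 and 2407 (limma adjusted p = 0.821). Slc43a3, a purine nucleobase carrier that the family name brings into the set, had 1267 to 2376 among controls, against 2339, 4045 and 3350 in Arhgef11Sglt2 libraries. Its log2 difference was 0.55 (SE 0.18, limma adjusted p = 0.135). Slc43a3 passed the threshold with sample weights and also without Arhgef11Sglt2 replicate 1.

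**Figure D4:**
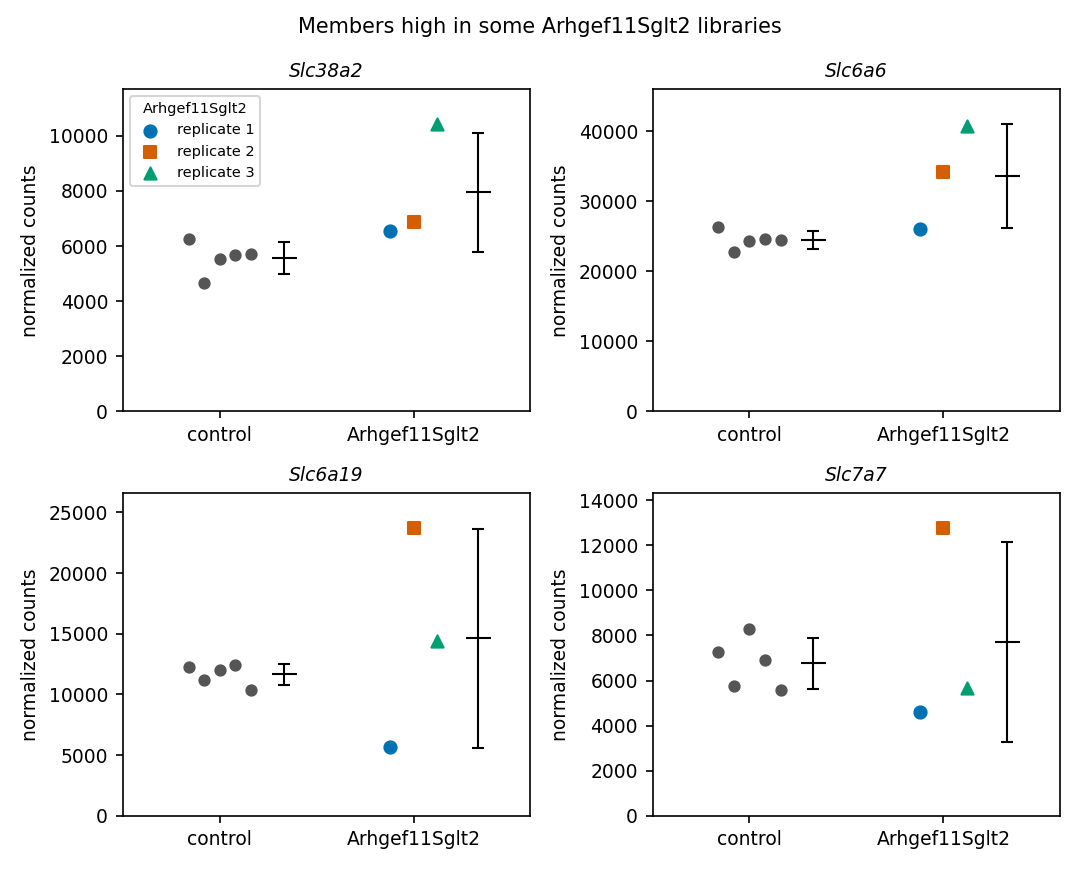
Normalized counts (vertical axes, from 0) of Slc38a2, Slc6a6, Slc6a19 and Slc7a7, with 1 point per library and the mean ± SD to the right of each group. Replicate 3 of the Arhgef11Sglt2 group is the highest library for Slc38a2 and Slc6a6, replicate 2 for Slc6a19 and Slc7a7, and replicate 1 lies below all controls for Slc6a19 and Slc7a7.

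The Arhgef11Sglt2 libraries differed from each other in these genes. For 14 of the 45 members (31.1%) at least 1 of them lay above all controls while another lay below all controls. The same was seen for 13.4% of all genes, and the difference between these shares was not tested. The 14 included Slc6a19, Slc7a7, Slc43a2, Slc3a2, Slc16a10, Slc1a4, Slc1a5 and Slc7a1. Replicate 1 was below all controls for 14 members (31.1%, against 22.4% of all genes) and above them for 9 (20%, against 22.5%). Replicate 2 was below for 9 (20%, against 25.7%) and above for 16 (35.6%, against 21.6%). Replicate 3 was below for 21 (46.7%, against 33.3%) and above for 10 (22.2%, against 28.6%). Among the 41 members with a mean of at least 50 normalized counts, the median coefficient of variation was 14% among controls and 24.8% in the Arhgef11Sglt2 libraries. Over the 13542 genes with such a mean, it was 10.4% and 14.3%. All members together made up 0.411% to 0.48% of normalized counts in the controls, and 0.403%, 0.494% and 0.413% in Arhgef11Sglt2 replicates 1, 2 and 3. Of the 4 markers of injured tubule, Lcn2 (3.14-fold, limma adjusted p = 0.0154) and Krt20 (7.47-fold, limma adjusted p = 0.0458) rose, as did 0.627% of all genes. Lcn2 had 7302, 4352 and 6932 normalized counts in Arhgef11Sglt2 replicates 1, 2 and 3, all above the 1249 to 2553 of the controls. Krt20 had 2481, 697 and 626, against 68.2 to 294. Havcr1 (16766, 4401 and 2916, limma adjusted p = 0.299) and Vcam1 (6067, 2312 and 1103, limma adjusted p = 0.707) did not pass, and had their highest value in replicate 1. The part of injury in the spread was not tested.

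When members were ordered along the tubule, the 6 with a textbook place in the early part (Slc6a19, Slc7a9, Slc15a1, Slc36a2, Slc7a7 and Slc7a8) had a median log2 difference of 0.00, and none passed the threshold. The 4 placed in the later part (Slc7a13, Slc6a18, Slc15a2 and Slc1a1) had a median of -0.33, and 1 passed. The early members summed to 29849 to 34023 normalized counts in the controls and to 19977, 53243 and 31464 in Arhgef11Sglt2 replicates 1, 2 and 3. The later members summed to 42578 to 62773 and to 42521, 34325 and 30522. Thus all Arhgef11Sglt2 libraries were below all controls for the later sum, replicate 1 only narrowly, and they stood on both sides for the early one. The later sum includes Slc7a13, which was already called lower, so it is no separate support. The groups overlapped for each of Slc6a18, Slc15a2 and Slc1a1. Among all single genes, 14.3% had no overlap.

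Other genes of amino acid handling were examined as lists. Of 14 peptidases and aminoacylases of the brush border and cytosol, which split peptides and acylated amino acids before or after uptake, 6 fell in limma and all 14 had a negative difference (median -0.49). The 6 were Acy1 (2.16-fold), Acy3 (2.75-fold), Mep1b (2.38-fold), Mep1a (1.56-fold), Mme (1.52-fold) and Pepd (1.39-fold). Of all genes, 1.59% were called lower, and 8301 of 15948 had a negative difference. Slc38a3, the glutamine carrier that feeds ammonia production, had 1097 to 2883 normalized counts among controls, against 3124 to 3583 in Arhgef11Sglt2 libraries (limma adjusted p = 0.0872). It was named after its value was seen. Of 9 partners and regulators none passed: the scaffold Pdzk1 had 32109 to 42901 against 13625 to 26107 normalized counts (limma adjusted p = 0.0788), and the scaffold Nherf1 and the ubiquitin ligase Nedd4l had adjusted p of 0.148 and 0.102. Of 16 genes of the amino acid response, the programme that the factor ATF4 drives when amino acids are short, 1 rose. It was Psat1, an enzyme of serine synthesis, with 1164 to 1715 normalized counts among controls, against 2655, 3167 and 3382 in Arhgef11Sglt2 libraries (2.01-fold, limma adjusted p = 0.0147). The median of that list was 0.15, with 11 positive differences. Among all genes, 0.627% were called higher, and 7647 of 15948 had a positive difference. Of 22 genes of lysosomal amino acid sensing none passed, with a median of 0.01. Lamtor2, Castor2 and Rragc had the smallest p, with limma adjusted p of 0.0944, 0.17 and 0.194. Of these 22 genes, 5 had an unadjusted limma p under 0.05, a share close to the 21.1% of all genes.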

How the data were processed

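RNA from 8 mouse kidney samples was sequenced as stranded mRNA libraries, per the labels' protocols. Salmon 1.10.0, DESeq2 and GRCm39 are named in the submitters' processing notes. The annotation and gene filter were not stated there. The authors deposited log2 values for 15948 genes, which look variance-stabilized: all columns share a minimum of 8.1275, taken as the value of a zero count. Its closed form, assumed to be the parametric one, was inverted to give normalized counts. Counts as such were not used, so no count model was run.

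Tests were made with limma 3.58.1 in R 4.3.3 (group as the only term, trended variances, all 8 libraries), adjusted over all genes, and the procedure was tested on simulated data. Folds are ratios of group means of normalized counts, while log2 differences are on the deposited scale, which compresses low genes. Symbols matched 15902 identifiers (99.71%). Transcript lengths and 31-base words came from the longest coding transcript of a GRCm38 reference.

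Named genes were members past the threshold, members without overlap, a panel of 25 members, Arhgef11, and from each other list the genes past the threshold or otherwise up to 3 with the smallest p. From the lists of cell type markers and sex chromosome genes, only genes past the threshold were taken. Kap, Cyp7b1, Prlr, Havcr1, Vcam1, Umod, Slc12a1, Cltrn, Slc38a3, Slc38a9, Slc43a3, Slc15a3 and Slc15a4 fall outside that rule, as do the 4 Y-linked genes. These were singled out once their values were known. The members and lists were chosen with earlier results of these data known. Alternatives covered the filter on low values, the scale, the scaling, blocks, the variance trend, sample weights, the threshold and each library left out. Whether the 2 runs of library numbers are separate cohorts is not stated.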

Additional observations from a re-analysis of the deposited data

Results flagged for a closer look

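In 6 members, 1 control library stood far from the other 4, measured by its gap to the nearest of them relative to the whole range of the controls. Control replicate 2 was that library in 4 of the 6: it was lowest for Slc3a1 (21571 normalized counts) and Slc43a3 (1267), and highest for Slc36a2 (241) and Slc7a10 (14.3). Control replicate 5 was highest for Slc15a4 (1039), and control replicate 1 was highest for Slc38a11 (37.4). Chance alone marks about 1 in 20 groups of normally distributed values in this way, and 45 members were looked at. The share over all genes was not computed. Nothing particular to these members or to control replicate 2 therefore follows.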

How the results depend on the processing

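Sample weights gave 3 higher members. With 1 library left out, higher members numbered 0 to 5, lower members 0 to 3, and the median difference ran from -0.0715 to 0.0354. It was -0.065 on the log2(normalized count + 1) scale. Higher calls were 28.2% of all calls over all genes, 26.6% on the log2(normalized count + 10) scale and 43.3% on that scale with equal totals, with 0 higher and 2 lower members each time. The fit with the replicate number as a block, on 6 libraries, called 0 members lower and 0 of 15948 genes, and the same 6 libraries without the block also called 0 (2165 and 2365 genes at an unadjusted p under 0.05). Same-numbered libraries did not deviate together (correlations -0.175, -0.088 and -0.007). Over all genes, calls numbered 354, but 24 without control replicate 4, 45 without Arhgef11Sglt2 replicate 3, 76, 135 and 187 without control replicates 5, 3 and 1, 874 with sample weights, 1038 at an adjusted p of 0.1 and 1334 without Arhgef11Sglt2 replicate 1. With 1 library left out, the Slc7a13 to Slc3a1 ratio ran from -2.86 to -2.0017 (-1.97 with the replicate block), the Slc7a9 to Slc3a1 ratio from 0.34 to 0.67 and the Slc15a2 to Slc15a1 ratio from -0.51 to 0.019. Signs also changed, with 1 library left out, for Slc16a10 (-0.20 to 0.0615), Slc1a1 (-0.0715 to 0.0875), Slc1a4 (-0.54 to 0.020), Slc1a5 (-0.23 to 0.0018), Slc36a2 (-0.17 to 0.11), Slc43a2 (-0.21 to 0.32), Slc6a13 (-0.20 to 0.0375), Slc6a19 (-0.33 to 0.65), Slc6a20a (-0.0007 to 0.13), Slc7a1 (-0.10 to 0.19), Slc7a7 (-0.35 to 0.33), Slc7a9 (-0.031 to 0.33) and Arhgef11 (-0.10 to 0.079). They changed with sample weights for Slc16a10 (0.13), Slc1a1 (0.040), Slc36a2 (0.12), Slc7a1 (-0.17), Slc7a5 (-0.024) and Arhgef11 (0.027). With the replicate block, and equally in the same 6 libraries without it, they changed for Slc1a1 (0.032), Slc6a20a (-0.0345) and Slc7a7 (-0.0084). Slc1a1 also changed when median centred (0.0006), with equal totals (0.038) and with the number run as a block (0.0043). The causes were not tested. Of 988 alternative values for 52 named genes, 802 kept direction and side of the threshold, 140 lost the threshold, 12 gained it and 34 changed sign. Fewer libraries leave less power, and low members rest on few reads.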
